A study of Mus musculus with 4 samples.

Results

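The immunoglobulin light chain genes considered here are the kappa constant gene Igkc, the lambda constant genes Iglc1, Iglc2 and Iglc3, and the lambda variable genes Iglv1, Iglv2 and Iglv3. They were chosen by symbol, and all 7 were found, among 20735 genes listed in at least 1 library. The mRNA came from germinal centre (GC) B cells, which divide after meeting antigen, mutate their antibody variable genes and are selected for binding. There were 2 Nsd2 knockout (ko) libraries and 2 wild-type (wt) libraries. In both groups the cells were sorted from spleens of C57BL/6 mice aged 8 weeks and immunized with sheep red blood cells. Nsd2 encodes a histone methyltransferase that dimethylates lysine 36 of histone H3. The sources used here do not give how the knockout allele was made, the cells in which it acts, or whether animals were pooled. Nothing in the labels says that replicate libraries are from different mice, so p-values measure only the spread between these libraries, which may be technical.

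An antibody and the B cell receptor each pair identical heavy chains with identical light chains. A light chain is of the kappa or the lambda kind, and a B cell as a rule makes only one of them. In the bone marrow the kappa locus usually rearranges first and lambda follows in cells whose kappa rearrangements failed or gave a self-reactive receptor, and in mice kappa cells far outnumber lambda cells. The mouse lambda locus is small: Iglv1 joins to the J segments before Iglc3 and Iglc1, while Iglv2 and Iglv3 join mainly to the J segment before Iglc2. Each variable gene encodes most of the antigen-binding domain, and each constant gene encodes the constant domain of the light chain.

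The lambda genes lie on the minus strand of chromosome 16 (GRCm38, GENCODE M21). In the direction of transcription Iglv2 (19260401 to 19260859) comes first and Iglv3 (19241207 to 19241690) second. Iglc2 (19198396 to 19200351), Iglv1 (19085017 to 19085500), Iglc3 (19065230 to 19065681) and Iglc1 (19061618 to 19062071) follow. Iglv2 starts 198.8 kb before Iglc1, and Iglc3 only 3.6 kb before it. Igkc, the one kappa constant gene, lies on the plus strand of chromosome 6 (70726435 to 70726966). The locus deposited with the FPKM values is wider for some genes. Iglv1, Iglc3 and Iglc1 share the same interval there (19051366 to 19106749), and Igkc has 70719073 to 70740554. Each variable gene has 2 exons, Igkc, Iglc1 and Iglc3 have 1, and Iglc2 is annotated with up to 2.

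The lambda genes fall into near-identical pairs, and their sequences are shown because they limit how far reads can be told apart. The coding bases of Iglc2 and Iglc3 are identical at 303 of 314 aligned positions (96.5%), with an identical run of 79 bases. Iglc1 shares 74.8% of aligned bases with Iglc2 and 75.7% with Iglc3. The start of the constant coding exon, from the GENCODE transcripts, is given 5′ to 3′ with capitals where a gene differs from Iglc2. The Iglc2 stretch lies at chr16:19198734-19198853, the Iglc3 stretch at chr16:19065563-19065681 and the Iglc1 stretch at chr16:19061953-19062071, all on the minus strand of GRCm38.
Iglc2: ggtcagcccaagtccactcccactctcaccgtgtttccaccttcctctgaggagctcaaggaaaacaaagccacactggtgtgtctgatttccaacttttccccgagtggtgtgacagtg
Iglc3: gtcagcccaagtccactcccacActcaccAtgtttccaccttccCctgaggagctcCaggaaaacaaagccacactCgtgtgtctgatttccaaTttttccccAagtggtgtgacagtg
Iglc1: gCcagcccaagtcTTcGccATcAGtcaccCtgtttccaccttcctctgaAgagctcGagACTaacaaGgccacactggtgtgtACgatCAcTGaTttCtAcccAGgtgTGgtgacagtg
In this stretch Iglc3 differs from Iglc2 at 7 bases and Iglc1 at 28.

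Among the variable genes, Iglv1 and Iglv2 are identical at 340 of 351 coding bases (96.9%), with an identical run of 104 bases, while Iglv3 shares 61.0% of aligned bases with Iglv1. Coding bases 61 to 180 of the first pair, at chr16:19085188-19085307 and chr16:19260572-19260691 on the minus strand, hold 2 differences, in capitals in Iglv2.
Iglv1: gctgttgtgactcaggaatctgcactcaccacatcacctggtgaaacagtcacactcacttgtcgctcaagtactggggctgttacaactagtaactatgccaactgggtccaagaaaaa
Iglv2: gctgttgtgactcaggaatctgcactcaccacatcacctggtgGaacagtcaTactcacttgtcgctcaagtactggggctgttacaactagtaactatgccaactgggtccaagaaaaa
The split of reads between Iglc2 and Iglc3, and between Iglv1 and Iglv2, is therefore uncertain, and GC B cells mutate their variable genes beyond these germline letters. The sources used here do not give how the authors handled reads that match several genes.

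**Figure D1:**
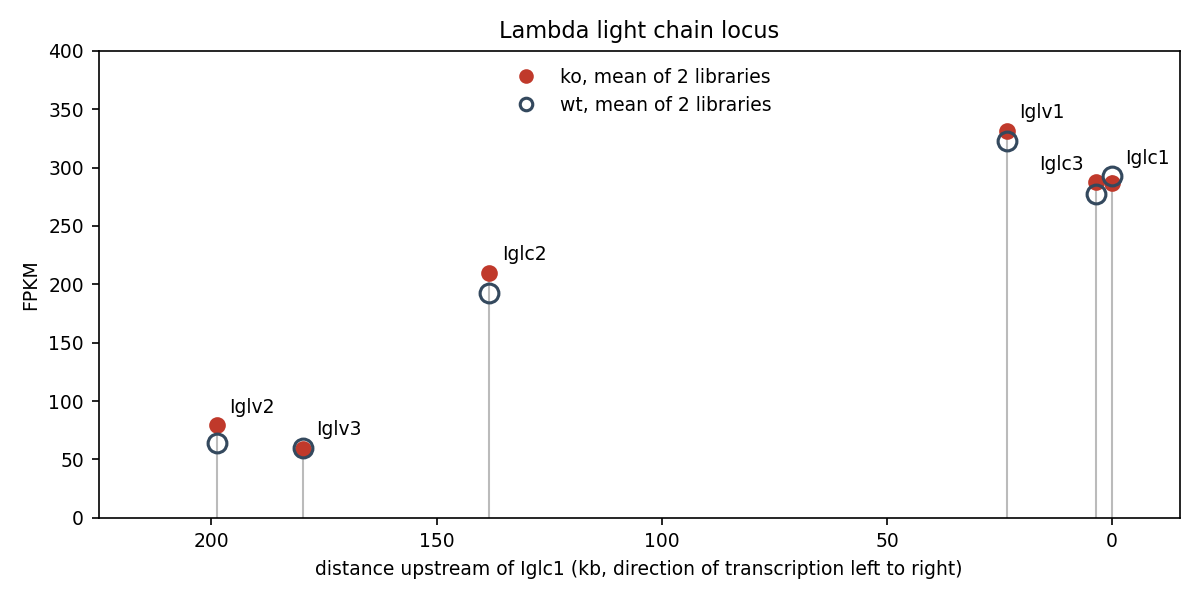
Mean FPKM of the 6 lambda genes (vertical axis) against distance upstream of Iglc1 in kb, with ko as filled and wt as open circles, means of 2 libraries each. Iglv1, Iglc3 and Iglc1 at the downstream end are the highest, and the ko and wt means separate most, in proportion, at Iglv2 (79.5 against 63.8 FPKM).

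The libraries listed 17731 to 17922 genes above 0. By the most frequent ratio to wt 1 among genes under 0.1 FPKM, the relative depth was 75.5% for ko 1, 77.3% for ko 2 and 94.2% for wt 2, taking wt 1 as the whole. Immunoglobulin genes took 4.26% to 4.40% of summed FPKM. Nsd2 itself, listed under its older symbol Whsc1, had 31.4 and 34.1 FPKM in ko and 76.9 and 81.4 in wt (log2 fold change -1.25, limma adjusted p = 0.000353), so transcript of the gene was still present in ko. Of the 6 GC B cell markers all were expressed, summing to 793.4 and 803.6 FPKM in ko and 767.7 and 774.9 in wt. Of these, Rgs13, a regulator of G protein signalling, rose, with 189.7 and 186.1 FPKM in ko and 141.6 and 141.8 in wt (log2 fold change 0.40, limma adjusted p = 0.00176, lost with no filter), Mef2b fell, and the other 4 did not pass. Across 10883 tested genes, 12.9% passed the limma test at an adjusted p below 0.05, with 6.66% higher and 6.20% lower in ko. Of the 7 light chain genes, all of which passed the filter of a mean of 1 FPKM, 2 were called, both higher in ko. Their median log2 fold change was 0.04, against 0.01 over all tested genes, and their median absolute change was 0.05, against 0.10.

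**Figure D2:**
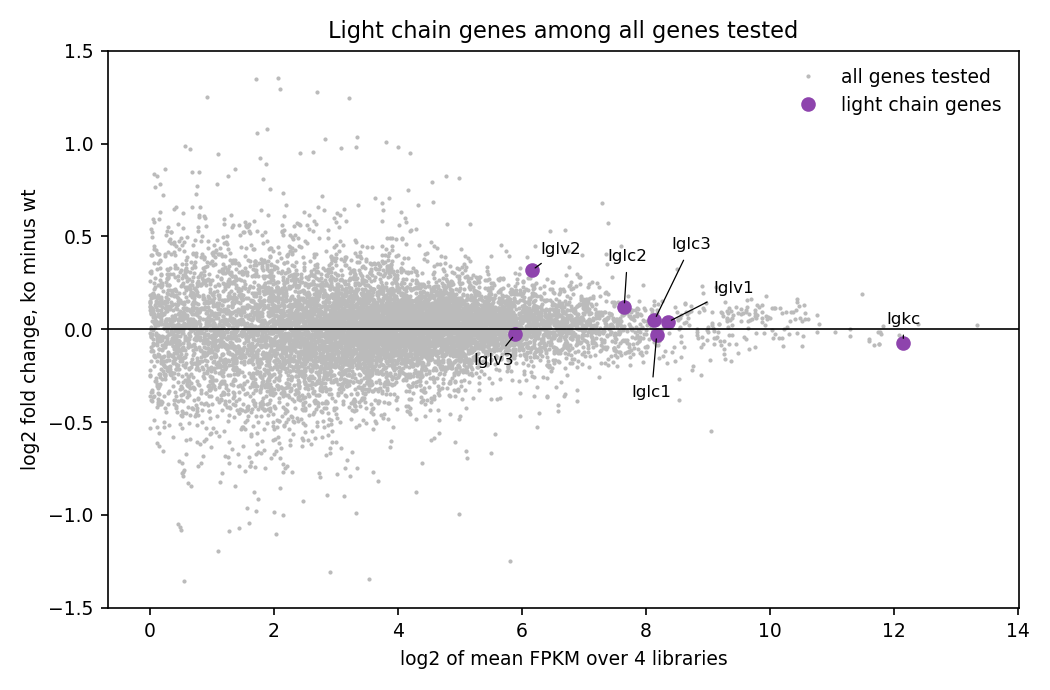
Log2 fold change (ko minus wt, vertical axis) against log2 mean FPKM over the 4 libraries for all genes tested, with the 7 light chain genes as large points. The plot is limited to changes of 1.5 either way, which leaves out 7 genes; only Iglv2 among the light chain genes lies beyond 0.2.

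Igkc, which encodes the constant domain of every kappa chain, was the third most abundant of the tested transcripts. It stood at 4549 and 4344 FPKM in the ko libraries and at 4771 and 4571 FPKM in the wt libraries. Both ko libraries lay below both wt libraries, but the gap between ko 1 and wt 2 was small beside that between replicates. The means were 4446 ± 145 FPKM in ko and 4671 ± 141 in wt (SD, n = 2), a log2 fold change of -0.07 ± 0.03 (SE) with a 95% confidence interval of -0.15 to 0.00 that did not pass the limma test (adjusted p = 0.172). With 1 library left out the log2 fold change lay between -0.10 and -0.04, never past the threshold. Of all tested genes, 62.5% had a larger absolute change.

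The lambda constant genes were each tested in limma for ko against wt, not against each other. Iglc2 was the one of the 3 that passed the test, with 214.2 and 205.4 FPKM in ko and 191.0 and 194.8 in wt. The groups did not overlap, and the means of 209.8 ± 6.20 FPKM in ko and 192.9 ± 2.64 in wt (SD, n = 2) give a log2 fold change of 0.12 ± 0.03 (SE, limma adjusted p = 0.0493). That call is at the edge of the threshold. It was lost when any one library was left out, with adjusted p of 0.173 without ko 1, 0.0690 without ko 2, 0.153 without wt 1 and 0.0930 without wt 2. It was also lost after median-of-ratios scaling (0.0646), while the sign of the change was kept under every alternative run.

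Iglc3, the near copy of Iglc2, had 290.8 and 283.8 FPKM in ko and 274.1 and 281.1 in wt. Here too both ko libraries were the higher ones, by less than the distance between replicates for the nearest pair, and the log2 fold change of 0.05 (95% confidence interval -0.01 to 0.11) did not pass (limma adjusted p = 0.254). Iglc1, the constant gene of the lambda 1 chain, had 288.5 and 284.6 FPKM in ko and 291.6 and 293.4 in wt. Its ko libraries were the lower ones, at a log2 fold change of -0.03 (95% confidence interval -0.09 to 0.03, limma adjusted p = 0.426), which turned to 0.04 when values were scaled to Igkc. In ko the levels of Iglc3 (287.3 ± 4.99 FPKM) and Iglc1 (286.6 ± 2.79) did not differ beyond their spread, while in wt Iglc1 (292.5 ± 1.26) stood above Iglc3 (277.6 ± 4.90). Iglc1 made up 36.4% and 36.8% of summed lambda constant FPKM in ko and 38.5% and 38.1% in wt (exact two-sided permutation p = 0.333, n = 2 per group).

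Of the variable genes Iglv2 alone was called, close to the threshold. Its reads are hard to tell from those of Iglv1, as given above. Iglv2 had 80.3 and 78.6 FPKM in ko and 58.2 and 69.5 in wt. The ko libraries thus lay close together above both wt libraries, which were well apart. The means were 79.5 ± 1.16 FPKM in ko and 63.8 ± 7.96 in wt (SD, n = 2), a ratio of 1.24 and a log2 fold change of 0.32 ± 0.08 (SE, limma adjusted p = 0.0456), and 10.2% of tested genes had a larger absolute change. The size rests on wt 1: it was 0.19 without wt 1 (adjusted p = 0.0615) and 0.44 without wt 2 (adjusted p = 0.00806), and the call was also lost without ko 1 (0.128) or ko 2 (0.108). It missed the threshold narrowly after median-of-ratios scaling (0.0517).

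Iglv1, the most abundant variable gene of the locus, had 343.3 and 320.1 FPKM in ko and 319.0 and 326.6 in wt. The groups overlapped, and the log2 fold change of 0.04 (95% confidence interval -0.05 to 0.13, limma adjusted p = 0.516) turned to -0.01 without ko 1. Iglv3 had 62.8 and 55.3 FPKM in ko and 57.2 and 62.9 in wt. These overlapped fully, with a log2 fold change of -0.03 (95% confidence interval -0.20 to 0.14, limma adjusted p = 0.834) that turned to 0.07 without ko 2, 0.04 without wt 2 and 0.04 when scaled to Igkc. Iglv2 stood above Iglv3 in each of the 4 libraries, with Iglv3 at 0.782 and 0.703 of Iglv2 in ko and at 0.983 and 0.906 in wt. In 5 of the 7 light chain genes the ko libraries both lay outside the wt libraries, which held for 61.2% of all tested genes. It was above in 3 (32.4% of all tested genes) and below in 2 (28.8%).

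**Figure D3:**
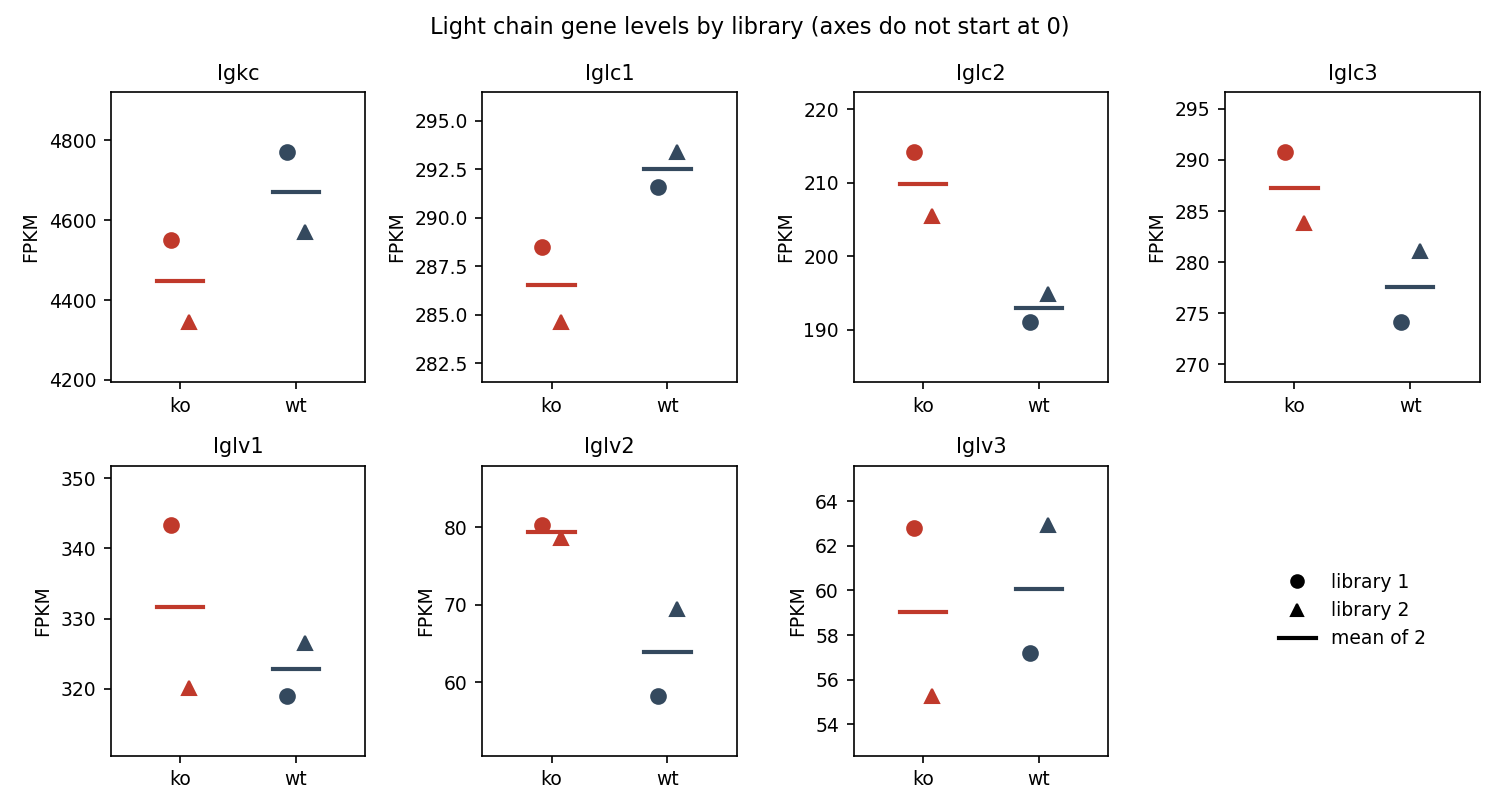
FPKM of each light chain gene in each library, ko left and wt right, with a bar at the mean of 2 libraries; each panel has its own axis, which does not start at 0. The ko points lie above both wt points for Iglc2, Iglc3 and Iglv2 and below them for Igkc and Iglc1, and the groups overlap for Iglv1 and Iglv3.

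The balance of lambda to kappa lay slightly higher in ko, in a design too small for its test to pass. Summed over Iglc1, Iglc2 and Iglc3, lambda constant FPKM was 793.5 and 773.8 in ko and 756.8 and 769.2 in wt. Divided by Igkc in the same library, which removes scaling between libraries, this gave ratios of 0.174 and 0.178 in ko and 0.159 and 0.168 in wt. Both ko ratios exceeded both wt ratios, with means of 0.176 ± 0.0026 in ko and 0.163 ± 0.0068 in wt (SD, n = 2), a difference of 0.11 on the log2 scale. Expressed as a share of light chain constant FPKM, lambda was 14.9% and 15.1% in ko and 13.7% and 14.4% in wt. With 2 libraries against 2 the exact two-sided permutation test cannot go below p = 0.333, which is the value it gave (0.417 adjusted over the 5 ratios tested). Without wt 1 the difference was 0.07.

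The ratio to Igkc was also taken for parts of the lambda genes, and whether its shift differs between them was not tested. Iglc2 and Iglc3 together were 0.111 and 0.113 of Igkc in ko and 0.0975 and 0.104 in wt, a log2 difference of 0.15. Iglc1 alone was 0.0634 and 0.0655 of Igkc in ko and 0.0611 and 0.0642 in wt, where the groups overlapped and the log2 difference was 0.04. When all genes were scaled to Igkc and refitted, so that each fold change is a ratio to kappa, Iglc2 lay 0.19 ± 0.07 higher in ko (limma adjusted p = 0.0420) and Iglv2 0.39 ± 0.08 (limma adjusted p = 0.000306). The other lambda genes did not pass, at 0.04 for Iglc1, 0.12 for Iglc3, 0.11 for Iglv1 and 0.04 for Iglv3. In that fit every gene shares the error of Igkc, so the genes are not independent. Its adjusted p-values can be too small and cannot be read like those of the main fit. For Iglc2 the SE rose from 0.03 to 0.07, yet the limma adjusted p went from 0.0493 to 0.0420. With this scaling 12.3% of all tested genes were called higher in ko (1334 up and 471 down, against 725 up and 675 down without it). In whole-sort RNA, more cells of one light chain kind and more RNA per such cell cannot be told apart.

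Between summed variable and summed constant genes of lambda the proportion overlapped between the groups. Summed Iglv FPKM was 0.613 and 0.587 of summed Iglc FPKM in ko and 0.574 and 0.597 in wt, a log2 difference of 0.04 (exact two-sided permutation p = 0.667, n = 2 per group). The groups also overlapped on each side of the locus, chosen after the values were seen. Iglv1 was 0.593 and 0.563 of Iglc1 plus Iglc3 in ko and 0.564 and 0.569 in wt, and Iglv2 plus Iglv3 was 0.668 and 0.652 of Iglc2 in ko and 0.604 and 0.680 in wt. The split planned beforehand, Iglv1 over Iglc1 alone, did not overlap, at 1.19 and 1.12 in ko and 1.09 and 1.11 in wt. Its log2 difference was 0.07 (exact two-sided permutation p = 0.333, n = 2 per group). On the kappa side, the 115 listed Igkv segments, which encode the kappa variable domains, summed to 6420 and 6164 FPKM in ko and 6037 and 6270 in wt, and of the 103 tested 26 rose and 9 fell, against 6.66% of all tested genes higher and 6.20% lower in ko. Their sum was 1.41 and 1.42 times Igkc in ko and 1.27 and 1.37 times in wt, without overlap, a log2 difference of 0.10 (exact two-sided permutation p = 0.333, n = 2 per group). That difference was 0.045 without wt 1 and 0.16 without wt 2. The calls of single Igkv segments were not followed under other settings or with a library left out. With variable and constant genes of each kind summed, the ratio of lambda to kappa was 0.117 in both ko libraries and 0.110 and 0.113 in wt, a log2 difference of 0.06.

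**Figure D4:**
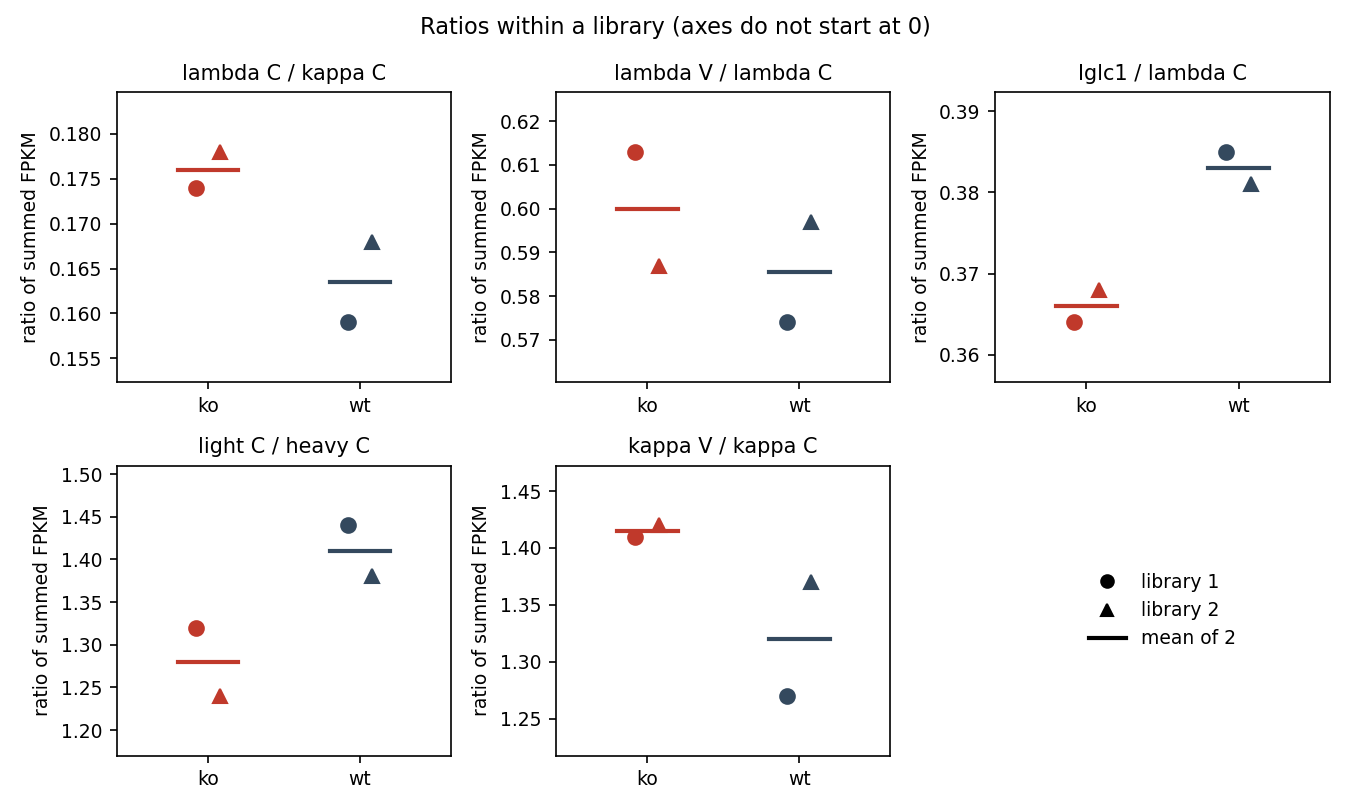
Ratios of summed FPKM within each library, ko left and wt right, with a bar at the mean of 2 libraries; C stands for constant and V for variable genes, and axes do not start at 0. Lambda to kappa constant is higher in both ko libraries (0.174 and 0.178 against 0.159 and 0.168), while lambda variable to constant overlaps.

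Light chain constant genes lay lower relative to heavy chain constant genes in ko, without overlap of the groups. Variable genes, whose sums are given above for the light chains, were left out of this ratio. Kappa and lambda constant genes together were 1.32 and 1.24 times the sum of 8 heavy chain constant genes in ko and 1.44 and 1.38 times in wt, a log2 difference of -0.14 (exact two-sided permutation p = 0.333, n = 2 per group). With 1 library left out it lay between -0.19 (without ko 1) and -0.10 (without ko 2). The ratios of lambda to kappa, of kappa variable to constant and of light to heavy all hold Igkc. Its own change did not pass (limma adjusted p = 0.172), and these ratios are not separate results. The heavy chain sum was 4052 and 4123 FPKM in ko and 3847 and 3857 in wt. Ighm, the constant gene of IgM, made up most of this sum, at 3034 and 3108 FPKM in ko and 2696 and 2679 in wt. All 8 heavy chain constant genes passed the limma test, Ighm and Ighd upward by 0.19 and 0.35 and the 6 switched classes (Ighg1, Ighg2b, Ighg2c, Ighg3, Ighe and Igha) downward by 0.16 to 0.79 on the log2 scale, against 2 of the 7 light chain genes and 12.9% of all tested genes. With 1 library left out, Ighg1 missed the threshold if that library was ko 1 (adjusted p = 0.0506) or ko 2 (0.0573), Ighg2b if it was ko 1 (0.0556), and Igha if it was ko 1, ko 2 or wt 2 (0.0948, 0.135 and 0.144). The calls of Ighm and Igha were also lost with quantile normalization, that of Igha with the replicate block, and those of Ighm, Ighg1, Ighg2b, Ighg3 and Igha without a trend of spread. With no filter on low values, where 14 genes were called in all, Ighg2c alone of the 8 kept its call.

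**Figure D5:**
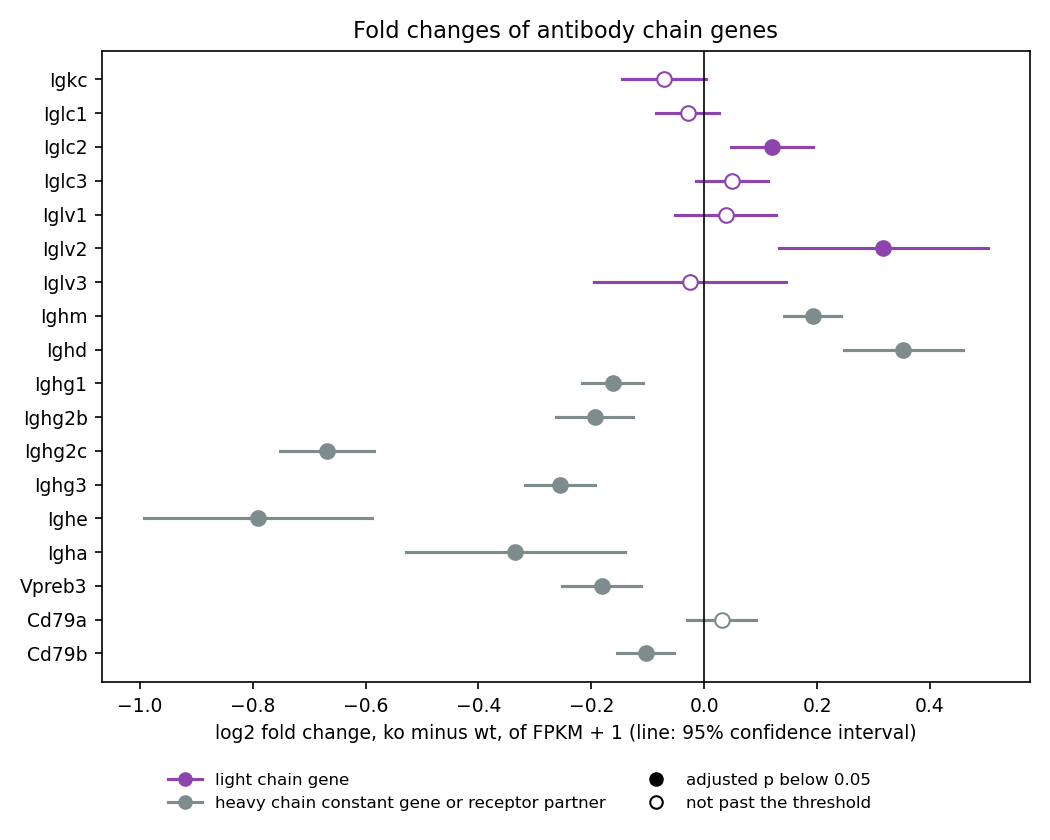
Log2 fold changes (ko minus wt) of FPKM + 1 with 95% confidence intervals for light chain genes (purple) and for heavy chain constant genes and receptor partners (grey), filled where the adjusted p was below 0.05. Iglc2 and Iglv2 are the filled light chain genes, and the changes of the heavy chain classes run from -0.79 for Ighe to 0.35 for Ighd.

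Among partners of the light chain, Vpreb3, a B cell protein related to the surrogate light chain, fell to 102.5 and 102.6 FPKM in ko, against 118.1 and 114.8 in wt (log2 fold change -0.18, limma adjusted p = 0.0173). Igll1 and Vpreb1, which form the surrogate light chain of precursor B cells, were listed at 0.152 FPKM or less or at 0 in every library. Rag1, of the recombinase that joins light chain segments, had 0.112 and 0.108 FPKM in ko and 0.119 and 0.0634 in wt. Cd79b, a signalling chain of the receptor, fell to 586.1 and 594.2 FPKM in ko, against 634.6 and 634.2 in wt (limma adjusted p = 0.0297). Its partner Cd79a had 579.2 and 590.8 FPKM in ko and 563.9 and 581.4 in wt (limma adjusted p = 0.442). Vpreb3 lost its call without ko 1, ko 2 or wt 1 (adjusted p = 0.0601, 0.0609 and 0.0666), and Cd79b lost it whichever library was left out (0.0710 to 0.123). Both lost it without a trend of spread or with no filter.

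Of 20 transcription factors that act at B cell or light chain enhancers, none rose and 4 fell, against 6.66% of all tested genes higher and 6.20% lower in ko. Tcf12, an E protein, fell to 11.3 FPKM in both ko libraries, against 17.7 and 18.4 in wt (log2 fold change -0.63, limma adjusted p = 0.00329). Pou2af1, the octamer coactivator, Mef2b and Spib, a partner of the lambda enhancer factor Irf4, fell by 0.11, 0.13 and 0.09. Irf4 had 15.0 and 14.5 FPKM in ko and 15.9 and 16.4 in wt (limma adjusted p = 0.172). The median log2 fold change of the 20 was 0.03. Tcf12 kept its call with any 1 library left out, while Pou2af1, Mef2b and Spib lost it whichever was left out, with adjusted p from 0.0611 to 0.148, and also without a trend of spread. With no filter all 4 lost it, and with the replicate block Mef2b and Spib did.

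Of 16 genes of antibody folding in the endoplasmic reticulum 4 rose, namely Sdf2l1 by 0.21, the disulfide isomerase Pdia6 by 0.18, and the chaperones Canx by 0.17 and Calr by 0.11, and none fell (median 0.09), against 6.66% of all tested genes higher and 6.20% lower in ko. Calr lost its call whichever library was left out (adjusted p = 0.0867 to 0.118). Sdf2l1 lost it without ko 1, ko 2 or wt 1 (0.104, 0.0905 and 0.116), Pdia6 without ko 2 or wt 1 (0.0614 and 0.0552), and Canx without ko 2, wt 1 or wt 2 (0.0808, 0.0757 and 0.0544). All 4 lost it without a trend of spread or with no filter, Calr and Sdf2l1 with the replicate block, and Sdf2l1 with quantile normalization.

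Plasma cells carry very large amounts of light chain mRNA. None of their markers passed the test, against 12.9% of all tested genes, a share that so few markers cannot be told apart from. Of 8 markers 7 were tested and 0 passed limma after adjustment, 1 of them, Mzb1, being under 0.05 before it, and they summed to 1034 and 1036 FPKM in ko and 1018 and 1025 in wt. Sdc1, a surface marker of plasma cells, had 1.88 and 1.87 FPKM in ko and 1.51 and 1.54 in wt, and Jchain had 575.9 and 571.9 in ko and 580.8 and 579.2 in wt. Both ko libraries lay above both wt libraries for Sdc1, Prdm1, Mzb1 and Tnfrsf13b (32.4% of all tested genes). They lay below for Jchain and Irf4 (28.8%), and the groups overlapped for Xbp1 and Tnfrsf17. Of the naive B cell markers given here, Fcer2a and Ighd passed the test and Ccr7 did not, against 6.66% of all tested genes called higher in ko. Both ko libraries lay above both wt libraries for each of them (32.4% of all tested genes). Fcer2a, a low-affinity IgE receptor, had 81.3 and 81.4 FPKM in ko and 68.1 and 68.4 in wt (limma adjusted p = 0.00911, lost without a trend of spread or with no filter), Ighd rose as given above, and the chemokine receptor Ccr7 had 3.73 and 4.63 FPKM in ko and 2.995 and 2.984 in wt (limma adjusted p = 0.0713). Their part in the light chain balance was not tested. The sum over 5 macrophage markers was 3.23 and 3.09 FPKM in ko and 0.942 and 1.20 in wt, and over 6 T cell markers 1.86 and 2.01 in ko and 0.780 and 0.877 in wt, against 5829 and 5572 FPKM of light chain genes in ko and 5962 and 5799 in wt. The groups did not overlap for 5 of the 5 macrophage and 4 of the 6 T cell markers, higher in ko each time. Both ko libraries lay above both wt libraries for 32.4% of all tested genes, but all of these markers except Lyz2 averaged under 1 FPKM and were not tested. Of these 11 genes Lyz2, a lysozyme of macrophages, was the one tested, and it rose, with 1.59 and 1.64 FPKM in ko and 0.333 and 0.605 in wt (log2 fold change 0.84, limma adjusted p = 0.0179). Its call was lost without wt 1 (0.0650) or with no filter, and without ko 1 or ko 2 it did not reach the filter. The part of either cell type in the light chain results was not tested. Short transcripts as a class lay slightly higher in ko: the 492 tested genes whose longest transcript has 300 to 650 bases, a range that holds all 7 light chain genes, had a median log2 fold change of 0.06, and its part in the results was not tested.

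The genes whose levels over the 4 libraries were most like those of Igkc, among 759 others averaging 100 FPKM or more, were Zfp207, Lsm14a and Rpl36al, with root mean square differences of 0.0076, 0.0093 and 0.013 between centred log2 values. Those most like Iglc1 were Arpc3, Msn and Gm28661, at 0.0050, 0.0066 and 0.0067. Zfp207 had 142.3 and 136.7 FPKM in ko and 148.0 and 142.5 in wt, and Arpc3 had 332.8 and 327.8 in ko and 333.4 and 336.6 in wt. The likeness rests on 4 libraries and is a description of these libraries only.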

How the data were processed

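Per the labels' protocols, GC B cells were sorted from spleen, lysed in Trizol and turned into mRNA-seq libraries. The deposited tables, 1 for each of 4 libraries (ko 1, ko 2, wt 1, wt 2), give FPKM per gene, per the file headers: the authors divided fragments by transcript length and library size. Per the submitters' processing notes, the tools were Bowtie2 2.2.9 and TopHat2 2.1.1 and the build mm10, without a role or order. The software behind the FPKM values, its annotation, use of strand and rule for reads with several matches: not given in the sources used here. FPKM hides depth, so relative depth was read as the most frequent ratio to wt 1 among genes under 0.1 FPKM in both libraries, and absolute depth is unknown. Genes missing from a table were set to 0. Gene IDs were matched to GENCODE M21 on GRCm38, the assembly of mm10 (99.4% of 20735), for positions, lengths and sequences, and coding bases were aligned pairwise with Biopython 1.88.

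All 10883 genes averaging 1 FPKM or more were fitted together as log2(FPKM + 1) with limma 3.58.1 (R 4.3.3), letting the variance follow mean expression, and p-values were adjusted over all of them (Benjamini-Hochberg, 0.05). Fold changes are on that scale and understate changes of low genes. The fit was tested on simulated data. These were independent normal values with the spread that the fit estimated, so they do not test the calls made here. Ratios of summed FPKM were compared with an exact two-sided permutation test (scipy 1.17.1). Named genes were the 7 light chain genes, the heavy chain constant and surrogate light chain genes past the test, up to 4 called members of each other list, and the 3 genes most like Igkc and Iglc1; Cd79a, Irf4, Rag1, Igll1, Vpreb1 and single cell type markers were named after their values were seen. The light chain genes and all lists were chosen with earlier results of these data known. A further naive B cell marker is not reported here. Python 3.11.15 with pandas 2.3.3 and numpy 2.4.6 joined the tables.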

Additional observations from a re-analysis of the deposited data

How the results depend on the processing

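The 2 calls among light chain genes (Iglc2 and Iglv2) were kept with a pseudocount of 0.1 and a filter of 5 FPKM. Both were also called with scaling to Igkc, where all genes share the error of Igkc, so those calls say little of their stability. In limma the count was 0 of 7 with no filter (2 genes at an unadjusted p below 0.05), median-of-ratios scaling (2), quantile normalization (3), a common sum without immunoglobulin genes (3), no trend of spread (1) and the replicate block (3). It ranged from 0 to 1 with a library left out (2 to 3 at an unadjusted p below 0.05), where the 1 was Iglv2. The cause was not tested. The log2 fold changes of Iglc2 and Iglv2 stayed positive throughout, while that of Igkc was 0.00 after quantile normalization, which gives it the same rank value in every library. Scaled to Igkc, Iglc1 and Iglv3 turned to 0.041 and 0.044, and leaving out a library gave -0.012 to 0.089 for Iglv1 and -0.116 to 0.065 for Iglv3. The lambda to kappa difference ranged from 0.07 to 0.15 with a library left out. The block cannot move a mean difference between balanced groups, and leaving out a library cannot turn a ratio whose groups do not overlap, so the kept directions of the ratios there say nothing of their stability.

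Across all genes the count of 1400 went to 14 with no filter, 536 with no trend, 917 with the replicate block and 394 to 600 with a library left out. Replicate numbers share no stated batch or animal, and deviations of same-numbered libraries had a correlation of -0.083, so the pairing was not used. Having 2 libraries per group and unknown absolute depth limits all of these values, and reads of near-identical lambda genes cannot be assigned with certainty.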
